A study of Mus musculus with 19 samples.

Results

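PRDM9 is the meiotic histone methyltransferase whose zinc finger array chooses where double-strand breaks (DSBs) form. At the sequences it binds it places H3K4me3, a trimethyl mark on histone H3. Breaks then form within a part of these sites, and the recombinase DMC1 coats the single-stranded DNA of the resected ends. In the germline of a population, repair of breaks tends to copy away the sequences that an allele binds best, a process called erosion. The humanized *Prdm9* allele carries the zinc fingers of a human PRDM9 and has not eroded its sites in mouse populations. In a hybrid male, each break can be traced to the chromosome it formed on wherever a SNP tells the parental chromosomes apart.

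The hotspots described here are those of the humanized allele at which the B6 chromosome was cut in B6SPRTF1-*Prdm9* Hum/SPRT males. They are the autosomal hotspots attributed by the authors to the humanized allele and were selected on the DMC1 readout itself, namely that over 75% of the DMC1 reads came from the B6 chromosome. There were 1259 of them, out of 3302 autosomal humanized hotspots with a B6 fraction, 4485 autosomal humanized hotspots in all and 74327 hotspots in the 5 tables of the series. A hotspot is called matched here at a B6 contribution of 25 to 75%, and cut on SPRT below 25%.

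Testes of adult male hybrids were assayed, at 10 weeks of age according to the methods. The Hum/SPRT males had a C57BL/6J (B6) mother heterozygous for the humanized allele, which is knocked in at *Prdm9* and encodes the human B allele, and a SPRET/EiJ (SPRT, *Mus spretus*) father, so that they carried the humanized and the SPRT allele and no B6 allele. The comparison hybrid, STUS/Hum, joins B6 chromosomes and the humanized allele with STUS/Jpia (STUS, *M. musculus musculus*). The label names B6 as its first parent, while the study's hotspot totals are given for the cross with STUS first, so the direction of the cross is not settled here. There was 1 DMC1 single-stranded DNA sequencing (SSDS) library for each hybrid, and for Hum/SPRT 3 H3K4me3 ChIP and 3 input samples, 1 of each labelled as a second sample of replicate 1. The tables give a single H3K4me3 value per hotspot, taken as pooled over these samples, so that no value here has a replicate error and no test between hybrids or between classes of hotspots was made. Intervals are 95% Wilson intervals for shares and 95% order-statistic intervals for medians; they treat hotspots or reads as independent and cover counting error only.

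Sequence was at hand for the starts of genes alone, and few humanized hotspots of any class lay near one. A RefSeq promoter window (300 bases, GRCm38.p6) came within 150 bases of the center of 5 of the 1259 hotspots, and no center lay inside one. It did so for 4 of the 1429 matched hotspots, with 3 centers inside, and for 2 of the 614 cut on SPRT, with 1 inside. Each window was searched on both strands for the 13-base motif known for human PRDM9, CCNCCNTNNCCNC, and for its 7-base core CCTCCCT, which can overlap the start of the longer motif. The 13-base motif was present in 6.29% of all 32851 promoter windows and the core in 15.4%. Of the 5 windows, 1 held the longer motif and 3 held the core. The core was found for 1 of the 4 matched hotspots and 1 of the 2 cut on SPRT, and the longer motif for 0 of each. These counts are too few to compare classes. Of the 5 windows, that of Gm33934, a gene model, is shown because it held both motifs. That of Gm33047, another gene model, is shown because it came closest to the center of a hotspot cut on B6. Both are printed 5′ to 3′ on the strand of the gene, with the letters of either motif in capitals.
Gm33934, chr6:101271686-101271985, plus strand: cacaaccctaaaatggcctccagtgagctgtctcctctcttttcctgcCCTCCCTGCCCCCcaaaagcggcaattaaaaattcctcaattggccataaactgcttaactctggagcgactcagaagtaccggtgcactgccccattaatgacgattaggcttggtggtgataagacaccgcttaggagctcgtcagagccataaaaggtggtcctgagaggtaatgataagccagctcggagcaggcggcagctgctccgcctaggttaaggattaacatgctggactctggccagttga
Gm33047, chr6:52579764-52580063, minus strand: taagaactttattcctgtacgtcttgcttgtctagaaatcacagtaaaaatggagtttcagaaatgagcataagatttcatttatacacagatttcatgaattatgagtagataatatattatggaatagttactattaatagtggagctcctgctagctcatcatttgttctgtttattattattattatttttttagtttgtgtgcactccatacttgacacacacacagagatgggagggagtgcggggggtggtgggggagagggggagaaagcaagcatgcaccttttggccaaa
In the first, the motif lay 118 bases from the hotspot center at position 101271619. This hotspot had a DMC1 signal of 23.2, with 87.5% of its DMC1 reads and 94.5% of its 380 SNP-carrying H3K4me3 reads from B6. The second window starts 6 bases from the center at position 52579758, where the DMC1 signal was 77.1 and the B6 chromosome gave 98.6% of DMC1 and 86.3% of H3K4me3 reads. It held neither motif, and so has no capitals, which says only that these letters are not in this window. A match is a description and not a mapped binding site.

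Hotspots cut on B6 were 38.1% of the humanized hotspots with a B6 fraction (interval 36.5 to 39.8%) and carried 32.3% of their DMC1 signal. Matched hotspots were 43.3% and hotspots cut on SPRT 18.6%, with 46.7 and 21.0% of the signal. Since these classes were set by the DMC1 fraction, the counts are a description. Of the 11799 autosomal hotspots of the library with a B6 fraction, whichever the allele, 49.5% lay above 75%. The B6 fractions crowded towards the top. Among the 1259 hotspots the median was 92.9%, 828 exceeded 90%, 441 exceeded 95% and 28 had every DMC1 read from B6. The 3 hotspots just inside the limit had 75.2% (chromosome 5, position 22152972, within Reln), 75.3% (chromosome 15, position 51473971) and 75.4% (chromosome 16, position 38182202, within Gsk3b). A further 7 hotspots sat at exactly 75% and were therefore matched, among them position 80287392 of chromosome 8.

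**Figure D1:**
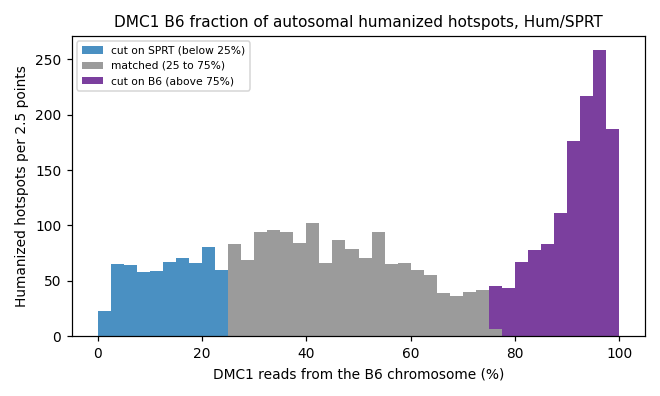
Histogram of the share of DMC1 reads from the B6 chromosome (x axis, %) at 3302 autosomal humanized hotspots of Hum/SPRT, in bins of 2.5 percentage points (y axis, hotspots per bin), colored by class. The 1259 hotspots cut on B6 pile up above 90%, while the 614 cut on SPRT spread below 25% without such a peak; the 7 hotspots at exactly 75% are drawn in the first bin above the limit.

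Allele attribution bears on how these counts read. The authors attributed hotspots by comparison with other mice, and 1924 autosomal hotspots of Hum/SPRT had no allele. Of the 1118 unassigned hotspots with a B6 fraction, 623 (55.7%, interval 52.8 to 58.6%) were cut on SPRT and 228 (20.4%, interval 18.1 to 22.9%) on B6, the opposite order to the humanized hotspots. Adding the unassigned hotspots to the humanized ones gave 1487 cut on B6 and 1237 cut on SPRT out of 4420. How many unassigned hotspots belong to the humanized allele is not known, and the part of attribution in the excess of B6-cut humanized hotspots was not tested. Hotspots of the SPRT allele in the same males leaned further to B6, with 4345 of 7368 (59.0%) above 75%.

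DMC1 signal at the hotspots cut on B6 ran from 7.63 to 323, with a median of 29.8 (interval 28.5 to 31.3) and quartiles of 19.7 and 49.9. The medians were 33.6 at matched hotspots (interval 31.8 to 36.0) and 39.2 at those cut on SPRT (interval 35.7 to 42.3). The ratio to matched hotspots, 0.886, moved with the limit: above 90% B6 it was 1.06 (interval 0.998 to 1.13, over the hotspots cut on B6 alone). Within the class, signal was higher where the B6 fraction was higher. The median signal was 21.7 for the 91 hotspots between 75 and 80% B6, 26.7 for the 387 between 90 and 95%, and 49.3 for the 387 between 95 and 99%. Spearman's rho between DMC1 signal and B6 fraction was 0.438 across the 1259 hotspots. Across all 3302 humanized hotspots with a B6 fraction it was -0.0816. All share 1 library, so that both measures draw on the same reads.

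The strongest of these hotspots lay on chromosome 5 at position 20754332, 4.33 kb from Phtf2, which encodes a putative transcription factor. Its DMC1 signal was 323, and 99.7% of its DMC1 reads and 96.5% of its 751 SNP-carrying H3K4me3 reads came from B6 (interval 94.98 to 97.6%). Next came a hotspot at position 53093514 of chromosome 19, within the long noncoding RNA gene Gm30234. It had a signal of 271, with 97.1% of DMC1 and 87.6% of H3K4me3 reads from B6. The third lay within Cfap54, a gene for a ciliary and flagellar protein, on chromosome 10 at position 93007642, with a signal of 253. Here the assays stood further apart, at 95.01% of DMC1 reads and 79.9% of 1034 H3K4me3 reads (interval 77.3 to 82.2%). The hotspot at position 106002393 of chromosome 1, within Zcchc2, had a signal of 238 and likewise 95.2 and 82.7%. At position 3423447 of chromosome 17, within Tiam2, which encodes an activator of the GTPase Rac, the signal was 234 and the fractions were 99.8 and 93.4%. In all 5, over 75% of H3K4me3 reads came from B6, as they did at 86.7% of the 1259 hotspots. For DMC1 the rule itself set this. The gene table holds gene bounds only, so exons and introns were not told apart.

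H3K4me3 comes from other libraries than the ones that chose these hotspots, and it too lay mainly on B6. Of the 1259 hotspots, 1092 (86.7%, interval 84.8 to 88.5%) had over 75% of their H3K4me3 reads from B6, against 35.4% of all 15556 autosomal hotspots with at least 10 SNP-carrying reads. The share was 2.87% at matched humanized hotspots (interval 2.12 to 3.87%) and 0.163% at those cut on SPRT (interval 0.0288 to 0.917%). The classes were set by the DMC1 fraction, which runs with the H3K4me3 fraction, and were not tested against each other. At the hotspots cut on B6, the median H3K4me3 fraction was 88.3% (interval 87.6 to 88.7%), with quartiles of 81.0 and 92.3%. It was 55.3% at matched hotspots and 33.0% at hotspots cut on SPRT. A median of 455 SNP-carrying reads (29 to 1930) stood behind each fraction. At 1254 of the 1259 hotspots (99.6%), the 95% interval of the fraction lay wholly above 50%, as it did at 65.3% of all autosomal hotspots.

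Reading the overlap from the side of binding, 1134 humanized hotspots with a DMC1 fraction had over 75% of H3K4me3 reads from B6. Of these, 1092 (96.3%, interval 95.03 to 97.2%) were cut on B6, so that the shared hotspots made up 86.7% of those cut on B6 and 96.3% of those marked on B6. A further 119 of 1154 humanized hotspots without a DMC1 fraction (10.3%) were marked on B6 by H3K4me3. Such hotspots, 1183 of 4485 in all, could not enter the class. Among other hotspots, H3K4me3 fractions leaned either way. The 36 hotspots with at least 10 SNP-carrying reads among the 75 marked KO, taken here to be PRDM9-independent, had a median H3K4me3 fraction of 62.6% (interval 56.3 to 71.0%), and all autosomal hotspots had 63.2%. At the same read minimum, the 9204 hotspots of the SPRT allele had 69.2%, and the 1860 unassigned ones 34.2% (interval 32.6 to 36.1%). Reads were placed on a B6-based genome, and its part in these fractions was not tested.

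**Figure D2:**
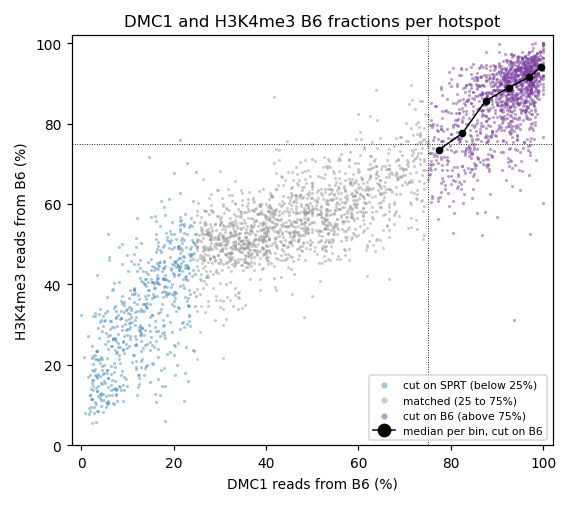
Each point is an autosomal humanized hotspot of Hum/SPRT, with the share of DMC1 reads from B6 on the x axis and the share of H3K4me3 reads from B6 on the y axis, both in %; dotted lines mark 75%. The black line joins the median H3K4me3 fraction in 6 bins of the DMC1 fraction, which climbs from 73.5 to 94.1%.

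The share of hotspots above 75% by H3K4me3 rose with the DMC1 fraction. A fixed limit is passed more readily the further the DMC1 fraction lies above it. The share therefore does not measure the distance between the assays. Of the 91 hotspots between 75 and 80% by DMC1, 40 (44.0%, interval 34.2 to 54.2%) were above 75% by H3K4me3, with a median of 73.5%. Between 85 and 90% it was 171 of 201 (85.1%), with a median of 85.6%. Between 95 and 99% it was 376 of 387 (97.2%, interval 94.98 to 98.4%), with a median of 91.6%, and of the 54 hotspots above 99% it was 53. This share varied less with the DMC1 signal. Of the 315 hotspots with the lowest DMC1 signal 84.8% were above 75% by H3K4me3, and of the 315 with the highest 87.6%. The median fractions by DMC1 and by H3K4me3 were 88.9 and 86.8% at the lowest signal. At the highest signal they stood further apart, at 96.8 and 90.7%. Across the 1259 hotspots Pearson's r between the fractions was 0.583 and Spearman's rho 0.564, and across all 3302 humanized hotspots they were 0.929 and 0.926. The points share base composition and SNP density between assays, and hotspots are not independent replicates.

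At hotspots cut on B6, the DMC1 fraction exceeded the H3K4me3 fraction at 1019 of 1259. The median difference was 4.58 percentage points (interval 4.12 to 5.07), and 964 hotspots agreed within 10 points. At hotspots cut on SPRT, DMC1 lay below H3K4me3 by more, with a median difference of -19.9 points. At matched hotspots the difference was -9.70, with medians of 45.7% by DMC1 and 55.3% by H3K4me3. Selection on a high or a low DMC1 fraction moves the differences of the one-sided classes away from 0 by construction, and all 3 are given without a test.

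At 167 of the hotspots cut on B6, the H3K4me3 fraction was 75% or less, and at 107 of these its interval lay wholly below 75%. The strongest of them lay within AW554918 on chromosome 18, position 25341390, with a signal of 173. Here 79.3% of DMC1 reads and 70.7% of 696 H3K4me3 reads came from B6. The next, on chromosome 14 at position 72982802, had 97.0% by DMC1 and 74.5% of 1532 reads by H3K4me3 (interval 72.3 to 76.7%). The third, on chromosome 9 at position 60252836 within Thsd4, which encodes a secreted matrix protein, had 80.8 and 65.6%. No hotspot of the class had an H3K4me3 fraction below 25%, and a single one fell below 50%. That hotspot was picked out after its value was seen. It lay on chromosome 4 at position 149607308 within Clstn1, a gene for a synaptic cadherin-like protein, with 93.7% of DMC1 reads but 31.2% of 1089 H3K4me3 reads from B6 (interval 28.5 to 34.0%). Its H3K4me3 enrichment of 12.3 was above the upper quartile of the class, 6.90.

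H3K4me3 enrichment over input at hotspots cut on B6 had a median of 4.94 (interval 4.78 to 5.14), 0.706 times the median of 6.99 at matched hotspots. Input coverage had a median of 26 in both classes. Multiplying enrichment by the fraction of each chromosome splits it between homologs. On the B6 chromosome, hotspots cut on B6 had a median of 4.32 (interval 4.13 to 4.44) and matched hotspots 3.95 (interval 3.81 to 4.08). On the SPRT chromosome the medians were 0.501 (interval 0.476 to 0.535) and 3.01 (interval 2.87 to 3.13). The lower total thus lay on the SPRT chromosome, while the median on the B6 chromosome was above that of matched hotspots. The B6 share of H3K4me3 runs with the DMC1 share used by the rule, so these values are a description. Hotspots cut on SPRT were not a mirror image. They had 1.50 on the B6 chromosome, beside 3.44 on SPRT. By DMC1 they were also less one-sided, with a median of 13.8% of reads from B6, beside 92.9% at hotspots cut on B6. H3K4me3 fractions leaned to B6 over all autosomal hotspots, with a median of 63.2%, though unassigned hotspots had 34.2%. The part of either in this asymmetry was not tested.

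DMC1 signal split in the same way gave 27.5 on the B6 chromosome at hotspots cut on B6 and 15.3 at matched hotspots. The rule itself raises this value, since it asks for a high B6 share. DMC1 signal per unit of H3K4me3 enrichment, without splitting by homolog, was taken over hotspots with a B6 fraction. Its median was 6.66 at hotspots cut on B6 (interval 6.43 to 6.99), near the 6.42 of all such humanized hotspots. It was 5.45 at matched hotspots, 8.61 at those cut on SPRT (interval 7.98 to 9.11) and 9.87 over all such autosomal hotspots. Across the 1259 hotspots, Spearman's rho between DMC1 signal and H3K4me3 enrichment, which come from separate libraries, was 0.416. Across all 3302 humanized hotspots with a B6 fraction it was 0.4785.

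**Figure D3:**
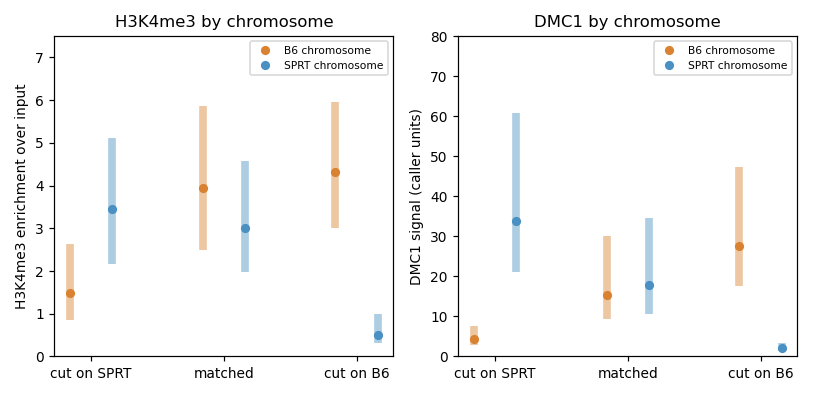
Medians (points) and quartiles (bars) over humanized hotspots of each class, split between the B6 and SPRT chromosomes: H3K4me3 enrichment over input (left) and DMC1 signal in the units of the authors' caller (right). At hotspots cut on B6, median H3K4me3 on the B6 chromosome (4.32) is above that of matched hotspots (3.95), and on SPRT it is 0.501 against 3.01.

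The 3 hotspots with the highest H3K4me3 enrichment were not the ones with the most DMC1. The first lay on chromosome 17 at position 33874621, 0.505 kb from the pseudogene Smim40-ps, with an enrichment of 19.3 but a DMC1 signal of 17.1. All of its DMC1 reads and 60.1% of its 557 H3K4me3 reads came from B6 (interval 56.0 to 64.1%), and its input coverage was 12. The second, within Ece1, which encodes an endothelin-converting enzyme, lay at position 137869049 of chromosome 4 with an enrichment of 18.3 and fractions of 93.4% by DMC1 and 84.8% by H3K4me3. The third lay within Piezo1, a gene for a mechanosensitive ion channel, at position 122513154 of chromosome 8, with 17.9 and fractions of 97.1 and 93.8%.

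Hotspots cut on B6 were found on every autosome, between 45 on chromosome 12 and 98 on chromosome 2. They outnumbered hotspots cut on SPRT on 19 of 19 autosomes. As a share of humanized hotspots they ranged from 30.2% on chromosome 12 (interval 23.4 to 38.0%) to 46.5% on chromosome 19 (interval 38.1 to 55.1%), and the interval took in the overall 38.1% on 17 of the 19. The median H3K4me3 fraction ranged from 84.9% on chromosome 7 to 90.2% on chromosome 13. Along the chromosomes they were interspersed with the other classes. After a hotspot cut on B6, the next humanized hotspot with a fraction was also cut on B6 in 498 of 1250 cases (39.8%, interval 37.2 to 42.6%), near the overall share. The longest unbroken run was 8 hotspots, on chromosome 15. By gene bounds, 65.8% lay within a gene (interval 63.1 to 68.3%) and 58.3% within a protein-coding one, against 69.8 and 62.1% of matched hotspots and 62.5 and 54.9% of all autosomal hotspots.

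**Figure D4:**
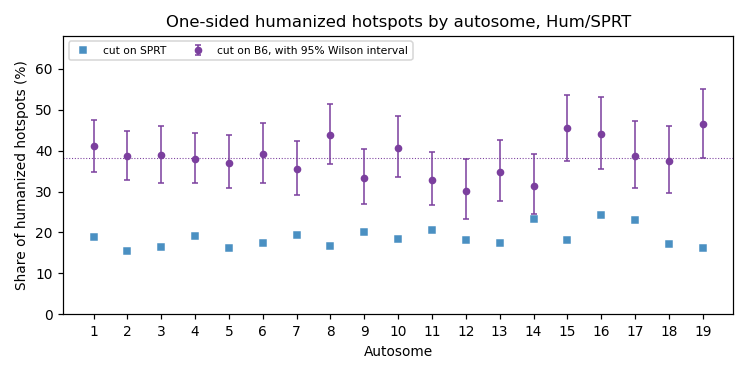
Share of autosomal humanized hotspots of Hum/SPRT (y axis, %) cut on B6 (circles, with 95% Wilson intervals) and cut on SPRT (squares) for each autosome (x axis); the dotted line is the overall 38.1%. The circle lies above the square on 19 of 19 autosomes.

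The humanized allele was also present in STUS/Hum, whose library the rule did not use. There the same B6 chromosome is set against that of STUS, a closer relative of B6 than SPRT. Of the 1259 hotspots, 1090 (86.6%, interval 84.6 to 88.3%) had a humanized hotspot of STUS/Hum within 500 bp, against 70.9% of all humanized hotspots, 76.1% of the matched (interval 73.8 to 78.2%) and 41.5% of those cut on SPRT (interval 37.7 to 45.5%). Hybrids without the humanized allele shared few humanized hotspots of any class. An autosomal hotspot of B6/SPRT lay within that distance of 6 of the 1259 (0.477%), of 0.350% of the matched and of 0.326% of those cut on SPRT. For CAST/SPRT it was 6 (0.477%), 0.210 and 0.163%, and for STUS/B6 it was 19 (1.51%), 0.840 and 0.814%. Attribution itself drew on which mice share a hotspot, so these overlaps are in part set by it and are given as a description.

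Cut mainly on B6 opposite SPRT, these hotspots spread over a wide range of B6 fractions opposite STUS. A B6 fraction was listed for 1031 of them in STUS/Hum. It was above 75% at 426 (41.3%, interval 38.4 to 44.4%), between 25 and 75% at 574 (55.7%, interval 52.6 to 58.7%) and below 25% at 31 (3.01%). The fraction exceeded 75% at 21.7% of all humanized hotspots of STUS/Hum. Over all 2933 humanized hotspots of Hum/SPRT with a fraction there, 22.6% were above 75%, 65.2% between 25 and 75% and 12.2% below 25%. For hotspots that were matched in Hum/SPRT the shares were 14.2% (interval 12.2 to 16.5%), 79.2 and 6.65%. The fullest bins of 10 points held 269 hotspots (26.1%) at 90% or more and 194 (18.8%) from 40 to 50%, with no gap between them, since 66 hotspots lay from 60 to 70% and 73 from 70 to 80%. Matched hotspots also rose towards the top, from 3.83% at 70 to 80% to 6.95% at 90% or more. Of the hotspots cut on SPRT, 126 of 243 (51.9%, interval 45.6 to 58.1%) were below 25% B6 in STUS/Hum.

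**Figure D5:**
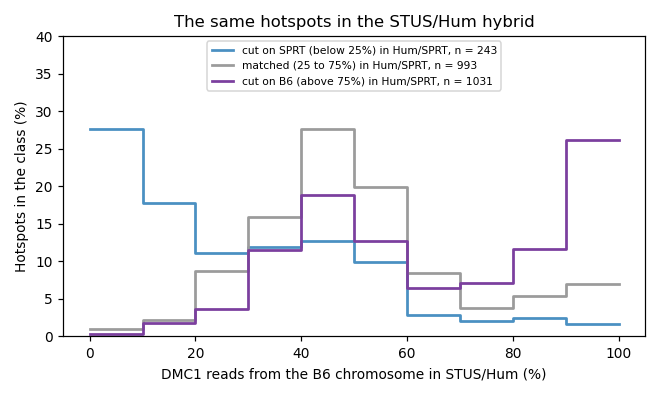
Distribution of the share of DMC1 reads from B6 in STUS/Hum (x axis, %, bins of 10 points) for humanized hotspots called in both hybrids, by their class in Hum/SPRT (y axis, % of the class). Hotspots cut on B6 in Hum/SPRT hold 26.1% at 90% or more and 18.8% from 40 to 50%.

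The strongest hotspots cut on B6 in Hum/SPRT fell both above and below 75% in STUS/Hum. The hotspots within Cfap54 and Zcchc2 had 50.5 and 46.7% of DMC1 reads from B6 in STUS/Hum, and the one near Phtf2 had 73.5%. Those within Gm30234 and Tiam2 remained on B6, at 95.1 and 98.0%, as did one within Ebf1, a gene for a transcription factor of B lymphocyte development, on chromosome 11 at position 44645464, at 76.5% (98.8% in Hum/SPRT). In Hum/SPRT itself, hotspots above 75% and at 25 to 75% in STUS/Hum had overlapping intervals in strength and in H3K4me3. The 426 above 75% in STUS/Hum had a median DMC1 signal of 31.7 (interval 29.4 to 34.0) and a median H3K4me3 fraction of 89.2% (interval 88.3 to 89.8%), and the 574 between 25 and 75% had 33.2 (interval 30.5 to 36.3) and 88.2% (interval 87.3 to 89.1%). The 169 not called in STUS/Hum were weaker, with a median signal of 21.2 (interval 19.2 to 23.4) and a median H3K4me3 fraction of 85.5%. Their lower signal stands beside the lower rate of calling, and its part in that rate was not tested.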

How the data were processed

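The authors mapped DMC1 SSDS and H3K4me3 reads (BWA and mm10 per the labels), called hotspots de novo, took the allele behind each hotspot from mice with other PRDM9 alleles, and used SNPs to tell the homologs apart. Deposited DMC1 values are a signal of the authors' caller, with scaling to depth not stated, and a fraction of DMC1 reads from B6 without its read number, so its depth is unknown. H3K4me3 columns deposited by the authors are counts of ChIP coverage and of input coverage in a 1000 bp window, the count of SNP-carrying reads, a B6 fraction, and an enrichment ratio against input (its formula, and how samples were combined, are not given in the sources used here). Tables were matched to genotypes by hotspot totals and allele names. Another 13 value columns (the authors' p-values and a sharing mark) were not used. ChIP coverage over autosomal hotspots of Hum/SPRT summed to 5213941 and input coverage to 426850.

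Shares, medians and intervals were computed with Python 3.11.15, pandas 2.3.3, numpy 2.4.6 and scipy 1.17.1, and plotted with matplotlib 3.10.9. H3K4me3 fractions required 10 SNP-carrying reads. Hotspots were taken as shared at centers within 500 bp. The computations were tested on simulated data, where 1200 of 1200 planted pairs were found and 95.1% of Wilson intervals covered the known share. The hotspots and limits were chosen with earlier results of these data known; the values by homolog and by bins of the DMC1 fraction were added after seeing the data. Named hotspots were the 5 of largest DMC1 signal, the 3 of highest enrichment, the 3 of largest signal at 25 to 75% B6 by H3K4me3 with at least 50 SNP-carrying reads, the 3 of largest signal above 75% and the 3 at 25 to 75% in STUS/Hum and those next to the limit. Gene names and promoter sequences are from RefSeq, GRCm38.p6, a patch release of the assembly also called mm10. The planned motif search around every center was replaced by promoter windows, since genome sequence was not used here. Alternatives covered the DMC1 limit, the read minimum, weighting, the matched range, the interval and the pairing distance.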

Additional observations from a re-analysis of the deposited data

How the results depend on the processing

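Of 35 alternative values, 20 stayed within the interval of the reported one. Moving the limit for cut on B6 to 70, 80 or 90% changed the share of humanized hotspots to 40.8, 35.4 and 25.1%, the share with an H3K4me3 fraction above 75% to 83.1, 90.1 and 96.1%, and the median H3K4me3 fraction to 87.5, 88.8 and 90.5%. The ratio of DMC1 signal to matched hotspots was 1.06 at the 90% limit, with an interval that included 1 (0.998 to 1.13). Against matched hotspots at 40 to 60% it was 0.833, and the ratio of H3K4me3 enrichment was 0.660. The share cut on B6 was 28.1% with hotspots lacking a fraction in the denominator and 32.3% weighted by DMC1 signal. Pairing within 250 bp found 78.0% of hotspots in STUS/Hum. These shifts follow from the sets counted; no other cause was tested. Dropping the read minimum could not change a result, since every hotspot cut on B6 had at least 29 SNP-carrying reads. These unchanged values are among the 20. Minima of 50 and 200 reads, a 99% interval and coverage in place of enrichment left their results within the interval. Motif windows of 50 and 250 bases were not run, since genome sequence was not used here. No paired analysis was possible because each result comes from single or pooled columns and no test. With 1 DMC1 library and unknown read numbers, the counting error of single DMC1 fractions could not be given.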

Other observations

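The 31 hotspots that were cut on B6 in Hum/SPRT and below 25% B6 in STUS/Hum had a median DMC1 signal of 22.4 in Hum/SPRT (interval 19.0 to 33.2) and a median of 90.6% of DMC1 reads from B6 there. H3K4me3, from separate libraries of Hum/SPRT, gave them a median B6 fraction of 88.3% (interval 79.8 to 91.7%). Of the 31, 25 (80.6%) were above 75% by H3K4me3, beside 86.7% of all 1259 hotspots cut on B6. The 2 limits that chose these hotspots put most DMC1 reads on B6 in Hum/SPRT and on STUS in STUS/Hum. They were 31 of 1031 hotspots cut on B6 with a fraction in STUS/Hum (3.01%). The read numbers behind their DMC1 fractions are unknown, and centers were paired within 500 bp, so a change of the cut homolog was not tested.

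The 4 hotspots with the lowest H3K4me3 fraction after the one in Clstn1, chosen after their values were seen, lay between 52.4 and 56.3%. One of them, 0.054 kb from Wwtr1 on chromosome 3, had an enrichment of 0.289, which it shared with 1 other hotspot as the lowest of the class, and rested on 42 SNP-carrying reads (interval 37.7 to 66.6%). Another, 9.92 kb from the long noncoding RNA gene Malat1 on chromosome 19, had 52.5% of 1025 H3K4me3 reads from B6 (interval 49.4 to 55.5%) but 97.1% of its DMC1 reads.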
